A study of Argopecten irradians with 2 samples.

Results

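Of the 59688 gill unigenes in the comparison of control and okadaic acid (OA)-exposed bay scallops, 87 (0.146%) reached a mean of 1000 or more FPKM (fragments per kilobase of effective transcript length, scaled to the mapped fragments of the library) over the 2 libraries at a length under 10000 bp. A unigene is a transcript sequence assembled from the reads themselves. The limit on length removed 0 unigenes of this abundance, since the highest mean FPKM among the 94 unigenes of 10000 bp or more was 167. The members were thus chosen by the FPKM of the same libraries that are compared below, so all values are descriptions of these libraries, given without a test.

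The control library came from gill of *Argopecten irradians* held with the solvent dimethyl sulfoxide alone, and the OA-exposed library from scallops held with 500 nM OA for 48 h (written below as under OA). By the description of the series a library pools 18 scallops, whereas the methods of the study describe pools of 6 from each of 3 tanks. With 1 library per condition there was no replicate, so no spread between pools can be given. The expected counts, which are the fragments assigned to each unigene and are called reads here, had a total of 11522064 (control) and 11607306 (OA-exposed). The files list the unigenes by assembly identifier and do not pair these with gene names, so the labelled tissue could not be checked against gill markers and no function can be given to a member. Therefore, 4 members are named by identifier and the others are described by their rank, their length and their values.

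The gill of a bivalve is a ciliated epithelium that drives water over the animal, exchanges gases and is among the first tissues to meet a dissolved toxin. OA is a polyether toxin of dinoflagellates that inhibits serine/threonine protein phosphatases. In libraries of polyadenylated RNA, a small set of transcripts usually takes a large part of the reads, and in animal tissues these often belong to protein synthesis, the cytoskeleton and the mitochondrion. Because FPKM is scaled to the total of its own library, a smaller part taken by such a set makes the values of all other transcripts larger by arithmetic alone.

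The members took 36.3% of the reads of the control library (95% Wilson interval 36.25% to 36.31%) and 26.5% of those of the OA-exposed library (26.50% to 26.55%). These intervals, like all others here, cover counting error only and no spread between pools. They also treat each read as an independent molecule, which reads amplified by PCR are not. The difference was -9.75 percentage points. The FPKM was lower under OA in 81 members, compared with 44.6% of all unigenes with 10 or more reads. That count depends in part on the rule, as described below. These 81 members went from 33.9% to 23.8% of the reads. The 6 with a higher FPKM went from 2.35% to 2.70%. All other unigenes together went from 63.7% to 73.5%, that is, to 1.15 times their control share, a log2 shift of 0.21. In bulk RNA of this kind, fewer cells of a type and less RNA per cell cannot be told apart. Weighted by abundance per length rather than by reads, the members held 40.3% of the summed FPKM of the control library and 30.3% of that of the OA-exposed library.

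**Figure D1:**
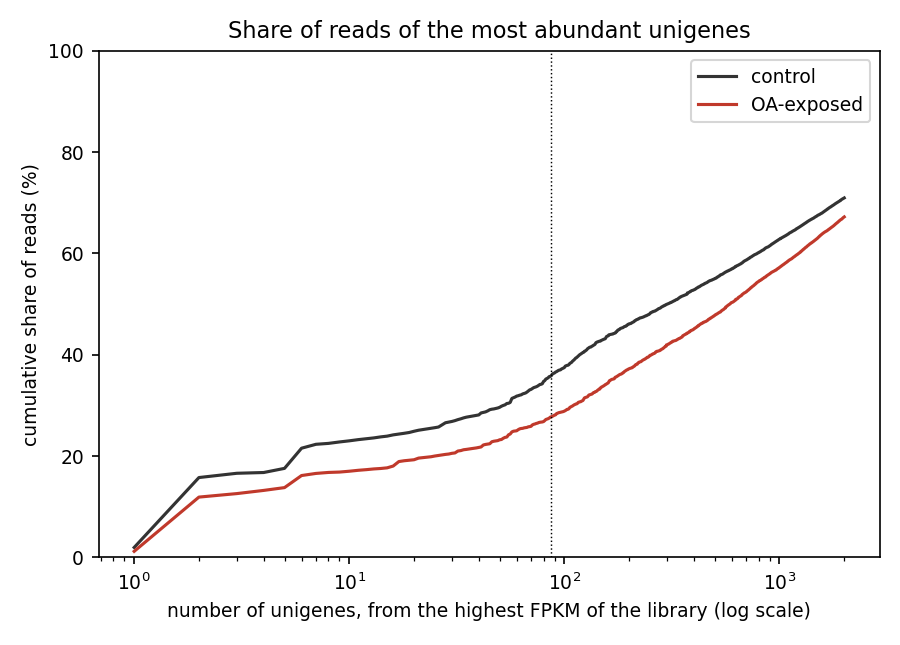
Cumulative share of reads (%, vertical axis) against the number of unigenes counted from the highest FPKM of each library (log scale), for the control and the OA-exposed library; the dotted line marks 87 unigenes. The 87 highest unigenes of each library held 35.9% (control) and 27.8% (OA-exposed) of the reads, and the curve of the control library lies above that of the OA-exposed library throughout the plotted range.

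The reads were spread unevenly among the members. Only 3 of them held more than 1% of the reads in either library, and 60 held under 0.2% of the control reads. The singleton Unigene10454_All, of 7702 bp, had the most reads in both libraries, 1589898 in the control and 1242650 under OA, or 13.8% and 10.7%. It was the second by FPKM in each library, with 17968 and 13967 FPKM, a log2 fold change of -0.36, with -0.37 to -0.36 as its exact 95% counting interval. It alone made up 31.7% of the difference in the share of reads of the members. Without it, the other members took 22.5% and 15.8%, so the lower share did not rest on this unigene alone.

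The highest FPKM of both libraries belonged to a much shorter unigene, a cluster contig of 901 bp with 23103 FPKM in the control and 14208 under OA. It had 226707 and 139528 reads, and its log2 fold change was -0.70 (interval -0.71 to -0.69). The longest member, a singleton of 8136 bp, was the sixth by FPKM and the second by reads in each library. It went from 458490 to 276606 reads, or from 3.98% to 2.38%, with 4903 and 2942 FPKM (log2 fold change -0.74, interval -0.74 to -0.73). Together with Unigene10454_All, these unigenes accounted for 55.9% of the difference in the share of the members.

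Of the 87 members, 81 had a lower FPKM under OA and 6 a higher one, whereas 44.6% of the 36617 unigenes with 10 or more reads (both libraries added) were lower and 54.5% were higher. Only 68 members reached 1000 FPKM under OA. Members below this value under OA passed the limit through the control library alone and could only be lower. Such members are among those counted here and at 1.5-fold and 2-fold below. With 1000 FPKM required in each library, 92.5% of 67 unigenes were lower. Under the other scalings of the libraries given below, 78 to 86 members and 38.5% to 53.7% of all unigenes were lower. The median log2 fold change of the members was -0.65, which corresponds to 63.8% of the control FPKM, against 0.11 over all unigenes with at least 10 reads. The members thus lay 0.76 below that median on the log2 scale, a distance that a common scaling factor cannot change. Among the 436 unigenes of 100 to 1000 FPKM, the class nearest in abundance, the median was -0.11 and 55.3% were lower. Their median FPKM was 2117 in the control and 1370 under OA, and their median read number 18190 and 10868. At least 1.5-fold lower values were found in 56 members (64.4%), compared with 25% of all unigenes. In FPKM, 8 members (9.20%) were at least 2-fold lower, compared with 15.5% of all unigenes, and 0 were at least 2-fold higher, compared with 18.6%. The share that was 2-fold lower depended on the scaling, with 3.45% of the members and 12.3% of all unigenes under TPM (each FPKM divided by the summed FPKM of its library), 16.1% and 17.5% with TMM factors (trimmed mean of M-values), and 25.3% and 19.8% with the libraries scaled to the reads of other unigenes, so it gives no fixed order of the members and the rest. All members passed the minimum of 10 reads, the fewest in 1 library being 2195, and the half-width of the counting interval was at most 0.08 on the log2 scale.

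**Figure D2:**
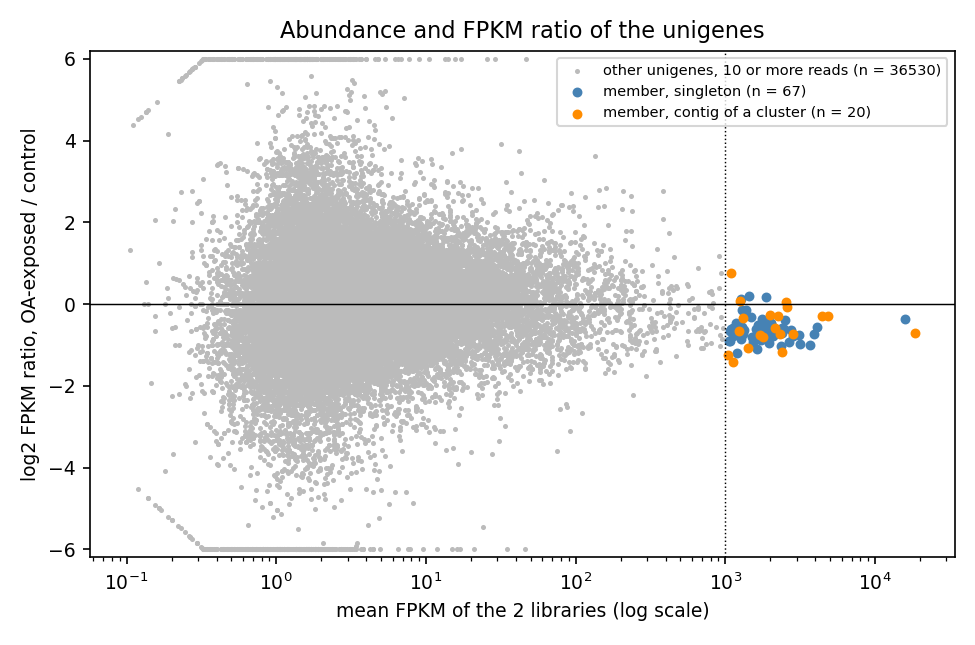
Log2 ratio of FPKM in the OA-exposed over the control library (vertical axis, values beyond 6 in either direction drawn at 6) against the mean FPKM of the 2 libraries (log scale). Grey points are other unigenes with at least 10 reads, coloured points the 67 singletons and 20 cluster contigs among the members, and the dotted line is the threshold of 1000 FPKM; 81 of the 87 coloured points lie below 0.

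The ratios of the members lay close together. The quartiles of their log2 fold changes were -0.79 and -0.49, an interquartile range of 0.30. Over all unigenes with at least 10 reads this range was 1.35, in a set that reaches down to 10 reads, and among the 436 unigenes with a mean of 100 to 1000 FPKM it was 1.08. The ratio differed little between classes of abundance. The median was -0.60 for the 31 members of 1000 to 1500 FPKM, -0.67 for the 27 of 1500 to 2000 FPKM, -0.67 for the 20 of 2000 to 3000 FPKM and -0.70 for the 9 of 3000 FPKM or more. In the same order, the median lengths of these classes were 1084, 608, 628.5 and 1621 bp, so the classes differ in length as well as in abundance. All 9 members of 3000 FPKM or more were lower under OA, and they held 22.8% of the control and 16.5% of the OA-exposed reads. The 5 members nearest to the threshold had mean values of 1036 to 1093 FPKM and were all lower, with log2 fold changes of -1.26 to -0.60. They had 1315 to 1460 FPKM in the control but 611 to 869 FPKM under OA. They thus passed the threshold through the control library alone, and their direction is not independent of the rule. Of the 5 unigenes just outside the threshold, with 925 to 968 FPKM, 4 were lower, the lowest at -0.86, and 1 was higher, at 0.76.

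**Figure D3:**
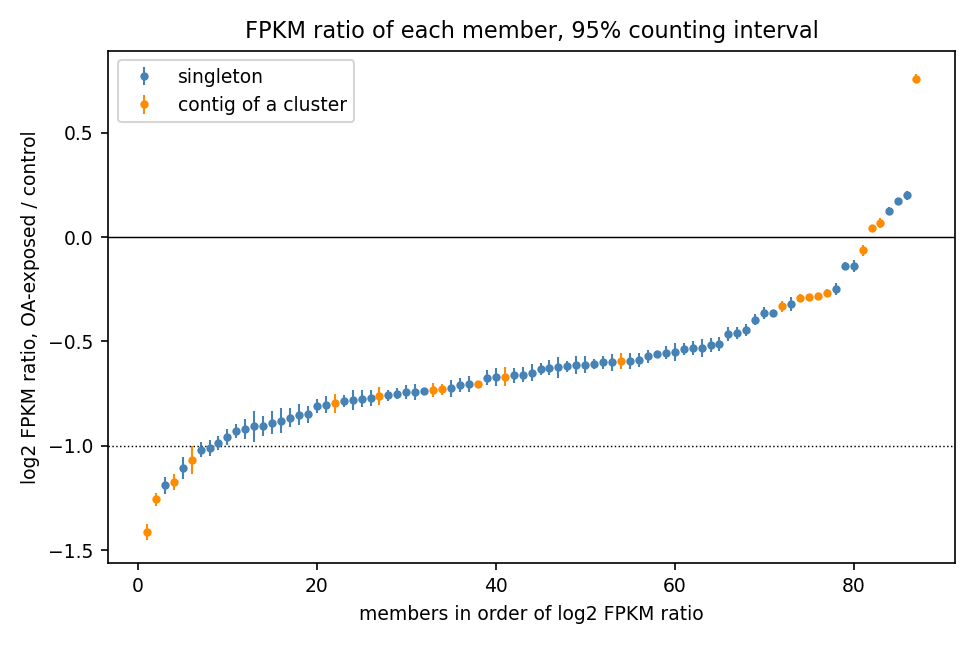
Log2 ratio of FPKM in the OA-exposed over the control library for each of the 87 members, in ascending order (horizontal axis), with exact 95% counting intervals as bars and a dotted line at a 2-fold lower value. The order runs from -1.41 to 0.76 with 6 members above 0 and 8 at or below the dotted line, and the bars are short beside the differences between members.

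The 8 members that were at least 2-fold lower comprised 4 singletons and 4 cluster contigs of 294 to 1616 bp, 6 of them shorter than 1000 bp. They had 1460 to 4935 FPKM in the control and 611 to 2452 FPKM under OA, and together went from 1.15% to 0.504% of the reads. Those under 1000 FPKM in the OA-exposed library passed the limit on the mean only through their control value. With 1000 FPKM required in each library, 5.97% of 67 unigenes were at least 2-fold lower, compared with 15.5% of all unigenes with 10 or more reads. The lowest ratio of the 8 was that of CL3947.Contig2_All, of 1162 bp, with 21034 reads in the control and 7922 under OA. Its FPKM was 1639 and 616, and its log2 fold change -1.41 (interval -1.45 to -1.37). It dropped from rank 60 to rank 112 by FPKM. The other contig of this cluster, of 717 bp, was also a member, with 3525 and 2125 FPKM and a log2 fold change of -0.73. The expected counts of both contigs were not whole numbers, which means that some reads were divided between similar sequences. The cluster as a whole had 48123 reads in the control and 24243 under OA. The highest of the 8 was a singleton of 357 bp with 4935 and 2452 FPKM, which was the fourth unigene of the control library and the ninth of the OA-exposed library. Its log2 fold change was -1.01 (interval -1.05 to -0.97). The counting interval of 3 of the 8, and of 1 member less than 2-fold lower, includes a 2-fold lower value.

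In FPKM, the 6 members that were not lower were CL2641.Contig1_All, Unigene50798_All and another 4 unigenes. CL2641.Contig1_All, of 2877 bp, had 26572 reads in the control and 45198 under OA, with 813 and 1377 FPKM. Its log2 fold change of 0.76 (interval 0.74 to 0.78) was the only one of at least 1.5-fold in this direction among the members, compared with 31.5% of all unigenes with 10 reads or more. It moved from rank 106 to rank 42. It was also the 1 member below 1000 FPKM in the control library. It thus passed the limit on the mean through the OA-exposed library alone, and its direction is not independent of the rule. Unigene50798_All, of 2481 bp, had 37813 and 43623 reads, with 1346 and 1547 FPKM. Its log2 fold change was 0.20, with a counting interval of 0.18 to 0.22. A singleton of 4473 bp, with 1774 and 1998 FPKM, had a log2 fold change of 0.17, and another of 3005 bp, with 1217 and 1329 FPKM, had 0.13. The smallest of these values were 0.07 in a cluster contig of 1951 bp, with 1233 and 1292 FPKM, and 0.04 in a cluster contig of 1675 bp, with 2492 and 2565 FPKM.

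Whether a member counted as lower depended on the scaling where the ratio was near 0. With TMM factors, which shift every log2 fold change by -0.10, 83 members and 49.6% of all unigenes were lower, and the last 2 unigenes named above changed sides. With the libraries scaled to the reads of all other unigenes, a shift of -0.21, 86 members and 53.7% of all unigenes were lower, and CL2641.Contig1_All alone stayed higher. With TPM, which shifts the ratios by 0.18, 78 members and 38.5% of all unigenes were lower, and 9 members were higher. The members that changed sides under TPM were a cluster contig of 818 bp with a log2 fold change of -0.06 in FPKM and singletons of 1303 and 3399 bp with -0.14 each.

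The members were mostly short. Their median length was 737 bp, compared with 605 bp over all unigenes, but 1196 bp over those with at least 10 reads and 1643 bp over those of 100 to 1000 FPKM. There were 59 members (67.8%) under 1000 bp, against 43.1% of the unigenes with 10 reads or more. Another 21 members measured 1000 to under 2000 bp and 7 measured 2000 bp or more, the shortest and longest being 294 and 8136 bp. Length enters FPKM as a divisor, through an effective length that was about 52.5 bp shorter than the unigene in the control and 57.0 bp shorter under OA. The log2 fold changes of FPKM and of reads scaled to the library total differed by at most 0.03 for any member.

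The ratio of a member differed with its length. All 13 members under 500 bp were lower under OA, with log2 fold changes from -1.11 to -0.53 and a median of -0.89. The 46 members of 500 to under 1000 bp were all lower too, with a median of -0.69. Of the 21 members of 1000 to under 2000 bp, 19 were lower, with a median of -0.46, and of the 7 members of 2000 bp or more 3 were lower, with a median of 0.13. The 6 members that were not lower measured 1675 to 4473 bp, and 0 of the 72 members under 1600 bp were higher. Over the 87 members, Spearman's rho between length and log2 fold change was 0.66, and it was 0.61 over the 80 members under 2000 bp. These are values across unigenes within the same 2 libraries and are given as a description. The 2 longest members, with log2 fold changes of -0.36 and -0.74, did not follow this order.

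**Figure D4:**
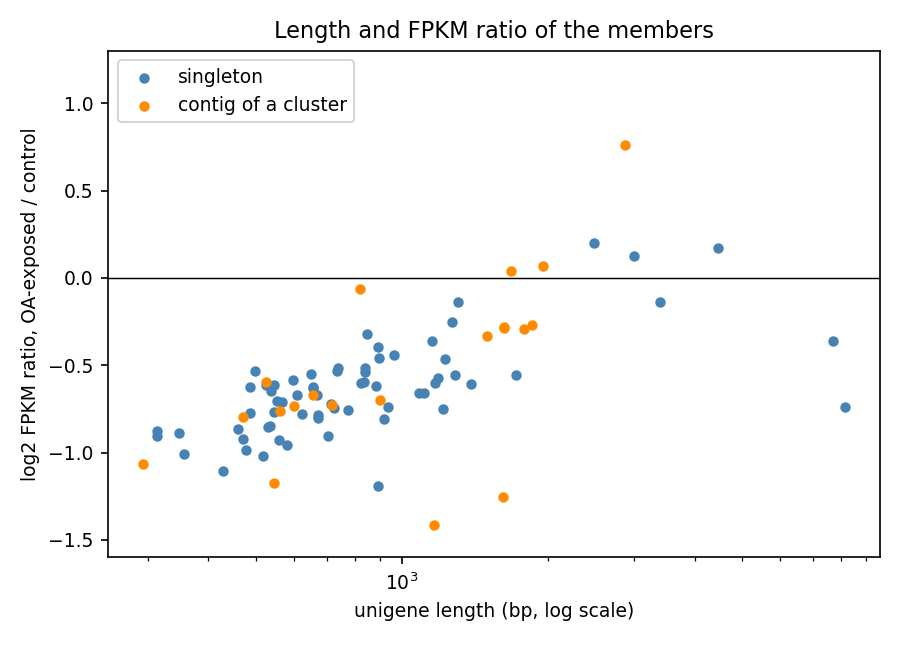
Log2 ratio of FPKM in the OA-exposed over the control library (vertical axis) against unigene length (bp, log scale) for the 67 singletons and 20 cluster contigs among the members. All 59 members under 1000 bp lie below 0, the 6 members above 0 measure 1675 to 4473 bp, and the 2 longest members lie below 0.

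The same order of lengths was looked for among less abundant unigenes. At 100 to 1000 FPKM, 76 of the 88 unigenes of 500 to under 1000 bp were lower, with a median log2 fold change of -0.67, close to the -0.69 of the members of that length. Of the 155 unigenes of 1000 to under 2000 bp 96 were lower, with a median of -0.20, and of the 171 of 2000 bp or more 58 were lower, with a median of 0.24. Below 500 bp the members differed most from this group, of which 11 of 22 unigenes were lower, with a median of 0.13 and quartiles of -1.10 and 1.21. Spearman's rho between length and log2 fold change was 0.42 over these 436 unigenes. At 10 to 100 FPKM the medians were 0.36 under 500 bp, -0.39 at 500 to under 1000 bp, -0.09 at 1000 to under 2000 bp and 0.36 above. Among the 27704 unigenes of 1 to 10 FPKM they were 0.27, 0.15, -0.005 and 0.21 for the same lengths. From 500 bp upward the medians thus rose with length at 100 to 1000 and at 10 to 100 FPKM, as in the members, but not at 1 to 10 FPKM. Unlike in the members, the median under 500 bp was the lowest in none of these classes. The part of length in the ratios of the members was not tested.

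**Figure D5:**
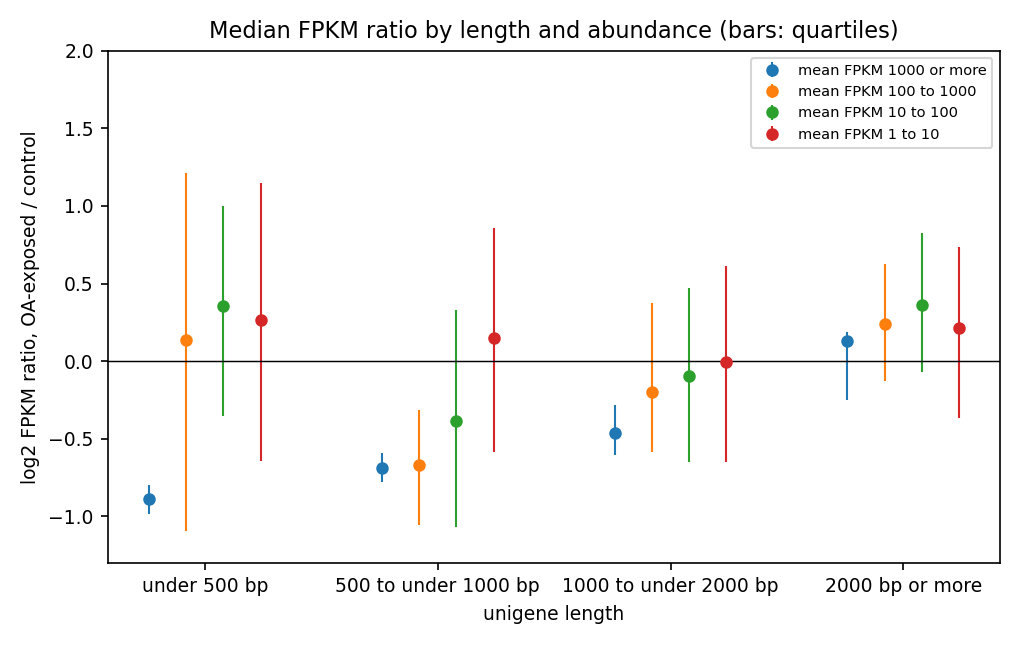
Median log2 ratio of FPKM in the OA-exposed over the control library (points, with quartiles as bars) by unigene length, for 4 classes of mean FPKM and unigenes with at least 10 reads. The medians of the members run from -0.89 under 500 bp to 0.13 at 2000 bp or more, and at 500 to under 1000 bp those of the 2 highest classes are -0.69 and -0.67.

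By their identifiers, 67 members (77.0%) were singletons and 20 (23.0%) were contigs of clusters, that is, of groups of similar assembled sequences. Contigs made up 37.7% of the unigenes with 10 reads or more and 44.7% of those of 100 to 1000 FPKM. Of the singletons 64 were lower and of the contigs 17, with median log2 fold changes of -0.65 and -0.63. The expected counts were whole numbers in both libraries for 77 members, 64 singletons and 13 contigs. For the other 10 (11.5%) some reads were divided among similar sequences, compared with 33.3% of the unigenes with 10 reads or more.

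The 20 contigs came from 16 clusters, of which 4 had 2 members each. In 2 of these 4 the members had similar ratios. A pair of contigs of 1624 and 1621 bp, the third and the fourth by mean FPKM, had 5340 and 4897 FPKM in the control and 4397 and 4008 under OA, with log2 fold changes of -0.28 and -0.29. A pair of 1786 and 1852 bp had 2496 and 2180 FPKM in the control and 2039 and 1811 under OA, with -0.29 and -0.27. The ratios were further apart in the cluster of CL3947.Contig2_All, described above, and in a cluster whose contigs of 818 and 525 bp had -0.06 and -0.59. The 16 clusters held another 30 contigs that were not members, and in 11 clusters the members held more than 90% of the reads in both libraries. Summed over all contigs, 13 of the 16 clusters were lower under OA, and all had the same direction as the sum of their members. The largest effect of summing, 0.32 on the log2 scale, was in a cluster whose member of 545 bp had 3331 and 1478 FPKM (log2 fold change -1.17). Its other contig, of 651 bp, had 367 and 503 FPKM (log2 fold change 0.45), and the log2 ratio of the summed reads was -0.87.

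The order of the members was largely kept between the libraries. Spearman's rho between their control and OA-exposed FPKM was 0.82, 8 members were in the top 10 of both libraries and 16 in the top 20 of both. The unigenes of rank 1, 2, 3, 5 and 6 were the same in each. By FPKM, 85 of the members were among the 87 highest unigenes of the control library and 80 among those of the OA-exposed library, with the last member at rank 106 and rank 113. In the control library 86 members reached 1000 FPKM, and under OA 68 did, with 7 and 3 unigenes outside the group above this value. A rank can improve while the FPKM is lower, and 28 members moved ahead, 22 of them with a lower FPKM under OA. Another 50 members fell back and 9 kept their rank, with a median move of 9 ranks. The largest moves ahead were those of CL2641.Contig1_All, by 64 ranks, and of Unigene50798_All, from rank 82 to rank 32.

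By reads, the short members stood much lower. Of the 87 unigenes with the most reads in the control library 60 were members, and of those under OA 39. The member of 294 bp, the shortest, had 5385 and 2536 reads and was at rank 230 and 612 by reads, although it was at rank 55 and 78 by FPKM. In the OA-exposed library the lowest place of a member by reads was rank 713.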

How the data were processed

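Gill RNA was sequenced as 1 control and 1 OA-exposed library, grouped by the sample labels. The authors filtered reads with SOAPnuke, assembled unigenes with Trinity and TGICL, mapped with Bowtie and estimated abundance with RSEM. Deposited by the authors were expected counts, without normalization, and FPKM, per effective length and scaled to the mapped fragments. Their comparison table repeats these FPKM, with 0.01 for an absent unigene, and 0 of 59688 values differed by more than 0.001 in either library. Its columns of fold changes, p-values and FDR were not used.

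Members were chosen on mean FPKM. Log2 fold changes are log2 ratios of the deposited FPKM with 0 set to 0.01. Background values cover unigenes with at least 10 rounded expected counts in the libraries together. Ratio intervals are exact conditional binomial (Clopper-Pearson) and share intervals Wilson, at 95% (scipy 1.17.1), for counting error only. With 1 library per condition, count models have no residual degrees of freedom, and no test was run. Normalization factors came from edgeR 4.0.16 and DESeq2 1.42.0 in R 4.3.3.

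The members, length classes and alternatives were chosen with earlier results of these data known. The rule for identifiers took the member with the most reads, the lowest ratio and the 2 highest ratios. RefSeq genes of the species share no identifier with the unigenes and were not used.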

Additional observations from a re-analysis of the deposited data

How the results depend on the processing

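The median log2 fold change of the members stayed below 0 under every alternative run, and the share of members that were lower (93.1%) stayed above 70%. With TMM factors the median was -0.75. Scaled to the reads of other unigenes it was -0.85, with 98.9% of members lower and 25.3% at least 2-fold lower, and the median of all unigenes turned from 0.11 to -0.092. With TPM, chosen after seeing the data, the median was -0.47 and 3.45% of members were at least 2-fold lower. The 87 unigenes with the most reads, of which 53 were members, had a median of -0.36 with 70.1% lower, a median length of 1624 bp, 35.6% cluster contigs, and 38.2% and 30.6% of the control and OA-exposed reads. With upper-quartile and median-of-ratios factors, reads scaled to the library total and log2(FPKM + 1), the median was between -0.66 and -0.65, with 93.1% lower and 9.20% to 10.3% at least 2-fold lower. With TMM factors 16.1% were at least 2-fold lower.

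Other limits of the group changed its share of the reads and, less so, the share of its unigenes that were lower. The share lower was 94.6% with the limit of 1000 FPKM on the control library alone and 87.3% on the OA-exposed library alone. It was 92.5% on each library, 86.3% from 500 FPKM and 96.6% from 2000 FPKM. The share of the control and OA-exposed reads was 41.4% and 31.2% from 500 FPKM (131 unigenes, median length 938 bp). From 2000 FPKM it was 26.8% and 19.3% (29 unigenes, 34.5% cluster contigs). It was 36.8% and 26.6% with the limit of 1000 FPKM on the control library alone, 34.5% and 26.2% on the OA-exposed library alone, and 33.8% and 24.8% on each library. With a minimum length of 300 bp the control share was 36.2%, and with 500 bp the shares were 35.1% and 25.9%. Without the member with the most reads they were 22.5% and 15.8%, and with only the members of whole expected counts, an alternative chosen after seeing the data, 32.2% and 23.3%. No paired analysis was possible because each condition has 1 library. For the same reason no library could be left out. Depth was not limiting for the members, but the median of all unigenes covers a set that reaches down to 10 reads in the libraries together.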
